A study of Gallus gallus with 12 samples.

Results

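Arterial and Notch genes, 9 in all, were followed across the left and right dorsal mesentery of the chicken embryo. They were the Notch ligand gene DLL1, the receptor gene NOTCH1, the receptor-modifying enzyme gene LFNG, the transcriptional targets HES5 and HEY1, and the vessel-associated genes GJA5, EPAS1, AQP1 and CD248. Every chicken probe set to which the platform annotation gave one of these names as its only gene symbol was taken. That gave 17 probe sets for 9 genes, out of 37693 chicken probe sets and 13008 named genes, and all 9 genes had at least 1 probe set. The genes were proposed with results of these arrays in view, among them the difference between left and right mesenchyme, so the genes count as chosen by that difference, which is described below and not tested for them.

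The dorsal mesentery is the sheet that hangs the gut tube from the back of the body cavity, and each of its sides has a mesenchymal core under a coelomic epithelium. Leghorn embryos at Hamburger-Hamilton stage 21, about day 3.5 of incubation, were cut into 8 µm frozen sections, and both mesenchymes and both epithelia, left and right, were captured by laser. No embryo was treated or genetically changed, as far as the labels say, and all 4 compartments share strain and stage. Each of 3 biological experiments gave 1 array per compartment, 12 in all, from pooled material of 1939 sections over the series. The sources do not say how many embryos were pooled or whether the compartments of 1 experiment share embryos.

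Notch is a receptor that is cleaved when a Delta or Jagged ligand on a neighbouring cell binds it, and the part set free enters the nucleus and works with RBPJ to switch on HES and HEY repressor genes. Fringe enzymes such as LFNG add sugars to Notch and shift which ligands activate it. In the embryo this pathway, with DLL4 as the main ligand, is known for setting arterial identity in endothelium, and GJA5, the gene of the gap junction protein connexin 40, is a classical arterial marker.

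All values are MAS5 signals, the linear brightness of a probe set scaled by the authors to a common level. Triplets are given in the order of replicates 1, 2 and 3. Equal replicate numbers in the 4 compartments were taken as 1 experiment, which the sample titles do not state. The scaled means of the 12 arrays were equal and their medians lay between 84.4 and 98.8. A floor of 15.5 to 28.5, taken from controls that match no chicken transcript, was passed by 71.6% to 80.7% of probe sets per array. Right mesenchyme 3 and right epithelium 3 had the largest residual SDs, 0.306 and 0.322 log2 against 0.253 to 0.288 on the others. The layers were checked by their markers: 8 of 10 tested coelomic epithelium genes were higher in epithelium, with PODXL, a surface sialomucin gene, at 1.67 ± 0.08 log2 (limma, adjusted p = 2.1e-09), and 4 of 13 mesenchyme genes were lower. The summed mesenchyme marker signal was 45645 to 50646 in left epithelium and 56197 to 58477 in left mesenchyme. On the right it was 57031 to 60773 in epithelium and 65582 to 67029 in mesenchyme. It was thus lower in epithelium on each side, but right epithelium overlapped left mesenchyme. Of the 13 tested mesenchyme genes 1 was called higher and 2 lower in left than right mesenchyme. In left against right epithelium 2 were called higher and 2 lower. FOXF1, a defining gene of gut mesenchyme, was not above the floor on any array. The summed coelomic marker signal was 23850 to 24056 in left and 29643 to 31376 in right mesenchyme. In epithelium it was 39626 to 41983 on the left and 47933 to 50337 on the right. It was thus lower on the left in each layer. LHX9, ALDH1A2 and KRT7 were called lower in left than right mesenchyme (-0.94, -0.75 and -0.59 log2) and ALDH1A2 in left epithelium (-0.69). No coelomic gene was called higher on the left. The part of this in the side differences was not tested. Changes are given as log2(signal + 16) ± SE, which understates the changes of dim genes. With 3 arrays per compartment, each from a separate experiment, the number of arrays limits the precision.

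DLL1, which encodes a Notch ligand, was dim everywhere. Its brighter probe set read 70.3, 41.0 and 87.6 in left mesenchyme, 49.2, 41.0 and 28.4 in right mesenchyme, 33.8, 26.0 and 33.3 in left epithelium and 33.3, 25.5 and 48.3 in right epithelium. Left mesenchyme was above left epithelium and overlapped both right compartments. The other read 48.4, 45.5 and 41.4 in left mesenchyme and 12.5, 13.8 and 14.2 in right mesenchyme, and it was above the floor on no array outside left mesenchyme. Left mesenchyme was therefore at least 1.68-fold above right mesenchyme by this probe set, taking the floor where a signal lay under it. Both probe sets were below the signal filter of 47.4 on average and were not tested. FAM120B, whose span partly overlaps that of DLL1 in the RefSeq annotation (GRCg7b), read 233, 183 and 112 in left and 230, 187 and 235 in right mesenchyme, with the sides overlapping, while the dimmest of its 3 probe sets was higher on the left (0.71 ± 0.45 log2, given without a test).

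NOTCH1, the receptor gene, was measured by 5 probe sets. The brightest read 753, 1040 and 989 in left mesenchyme, 659, 660 and 528 in right mesenchyme, 495, 705 and 729 in left epithelium and 827, 653 and 672 in right epithelium. The 3 left mesenchymal arrays were above the 3 right ones, by 0.57 ± 0.21 log2, but the left mesenchymal range overlapped that of right epithelium. A second tested probe set had a different order, with left epithelium at 176, 142 and 173, left mesenchyme at 228, 106 and 122, right epithelium at 99.5, 90.0 and 125, and right mesenchyme lowest at 23.2, 68.6 and 77.2. Its mesenchymal difference was 1.25 ± 0.39 log2, fell to 0.74 without right mesenchyme 1 and was 0.55 in the alternative that lowered it most. The other 3 probe sets were too dim to test, and their mesenchymal differences ran from -0.39 to 0.68 log2. Across the 12 arrays the other 4 probe sets correlated with the brightest at r of -0.07 to 0.15, so the files do not give NOTCH1 a single pattern.

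LFNG, the Fringe gene, followed the layer rather than the side. Its bright probe set read 1079, 1132 and 1032 in left mesenchyme, 852, 780 and 1040 in right mesenchyme, 465, 423 and 374 in left epithelium and 475, 407 and 252 in right epithelium. All 6 mesenchymal signals were above all 6 epithelial ones. Left and right overlapped within each layer, with a mesenchymal difference of 0.28 ± 0.22 log2. The other probe set was near the floor, with means of 18.8 to 36.5, and was not tested.

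HES5, which encodes a repressor that Notch activates directly, was high in left mesenchyme by both of its probe sets. The brighter read 541, 275 and 259 in left mesenchyme, 86.7, 87.3 and 17.1 in right mesenchyme, 62.5, 94.6 and 35.8 in left epithelium and 5.9, 25.4 and 5.4 in right epithelium. Its left mesenchymal signals were all at least 2.74 times the highest of the other 9. The difference between the mesenchymes was 2.33 ± 0.41 log2, from 63.7 ± 40.4 (SD, n = 3) on the right to 358 ± 158 on the left. The second probe set read 176, 159 and 230 in left and 75.4, 37.0 and 55.2 in right mesenchyme, a difference of 1.53 ± 0.40 log2, and tracked the first at r = 0.84 over 12 arrays.

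In the RefSeq annotation HES5 lies inside the spans of 2 other genes, PRDM16, which encodes a zinc finger transcription factor, and LOC419390, a protein-coding gene without a name. LOC419390 read 3325, 3123 and 3904 in left mesenchyme, 415, 280 and 309 in right mesenchyme, 160, 346 and 184 in left epithelium and 124, 209 and 136 in right epithelium. It thus had the same high compartment as HES5. The brightest of 3 PRDM16 probe sets read 106, 63.3 and 98.0 in left and 57.3, 72.3 and 91.1 in right mesenchyme, and the sides overlapped. A dimmer one was lower on the left, with 35.7, 19.5 and 29.5 against 79.9, 81.4 and 79.1 (-1.14 ± 0.41 log2, given without a test). For the dimmest the sides overlapped (-0.29 ± 0.38 log2, likewise without a test). The suffix of the brighter HES5 probe set marks probes that can match more than 1 transcript, and which transcripts the HES5 probes detect was not tested, so the HES5 signal is uncertain to that extent.

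HEY1, which encodes a related repressor downstream of Notch, was well above the floor in all compartments and higher on the left in both layers. It read 2548, 2053 and 2826 in left mesenchyme, 1692, 1736 and 1934 in left epithelium, 1295, 1198 and 1281 in right mesenchyme and 1156, 803 and 567 in right epithelium. The 4 compartments took that order without any overlap between neighbours, and both left compartments were above both right ones. The means were 2476 ± 392, 1787 ± 129, 1258 ± 52.4 and 842 ± 296 (SD, n = 3). In mesenchyme the left exceeded the right by 0.96 ± 0.20 log2, which is 1.94-fold.

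GJA5, the connexin 40 gene, had the steepest fall from left mesenchyme to epithelium of the 9 genes. It read 661, 663 and 530 in left mesenchyme, 134, 55.2 and 237 in right mesenchyme, 23.5, 41.3 and 6.9 in left epithelium and 2.6, 14.5 and 34.9 in right epithelium. Left mesenchyme was clear of right mesenchyme, and right mesenchyme of both epithelia, which overlapped. Only 2 of 3 left and 1 of 3 right epithelial arrays were above the floor, so the epithelial level is close to a bound. The mesenchymal difference was 2.18 ± 0.49 log2, from 142 ± 91.2 to 618 ± 76.0. Over the alternatives it ran from 1.58 to 2.84, and was 2.84 without right mesenchyme 3 and right epithelium 3.

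EPAS1 encodes HIF-2 alpha, an oxygen-regulated transcription factor that is abundant in endothelium. Its brighter probe set read 821, 1182 and 1154 in left mesenchyme, 303, 207 and 227 in right mesenchyme, 138, 155 and 163 in left epithelium and 194, 126 and 106 in right epithelium. All left mesenchymal signals exceeded the other 9 by at least 2.71 times, and the epithelia overlapped. The difference between the mesenchymes was 2.03 ± 0.29 log2. The other probe set read 712, 755 and 777 in left and 347, 116 and 489 in right mesenchyme, a smaller difference of 1.40 ± 0.43 log2 that fell to 0.83 without experiment 2, and correlated with the first at r = 0.87.

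AQP1, the gene of a water channel found in many endothelia and in red cells, had the largest mesenchymal difference of the 9 genes. It read 1777, 1724 and 2037 in left mesenchyme, 413, 252 and 277 in right mesenchyme, 191, 129 and 128 in left epithelium and 58.1, 123 and 85.4 in right epithelium. The compartments took that order without overlap between neighbours, and the lowest left mesenchymal signal was 4.17 times the highest of the other 9. Left exceeded right mesenchyme by 2.52 ± 0.30 log2, from 314 ± 86.7 to 1846 ± 168.

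CD248 is the platform's name for its probe set, while the RefSeq table gives the same gene the synonyms CD93 and C1QR1. CD248 encodes a surface protein of pericytes and fibroblasts and CD93 a related one of endothelium, so that the cell type this probe set stands for depends on the name. It read 331, 420 and 318 in left mesenchyme, 79.9, 109 and 48.2 in right mesenchyme, 2.3, 27.8 and 28.1 in left epithelium and 26.4, 13.0 and 28.6 in right epithelium. Left mesenchyme was clear of all others, and each epithelium was above the floor on 2 of 3 arrays. The mesenchymal difference was 2.02 ± 0.42 log2.

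Taking the brightest probe set of each gene, the 3 left mesenchymal arrays were above the 3 right ones for 7 of 9 genes, with DLL1 and LFNG overlapping. They were above all other 9 arrays for 6 genes: HES5, HEY1, GJA5, EPAS1, AQP1 and CD248. Over all chicken probe sets the shares separated in these ways were 7.48% and 1.04%, and over the tested ones 8.93% and 1.28%. Since the mesenchymal difference helped to choose the genes, nothing is read from their count. Over all 17 probe sets, left was above right mesenchyme for 11 and overlapped it for 6. In these bulk samples fewer cells of a type and less RNA per cell cannot be told apart.

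**Figure D1:**
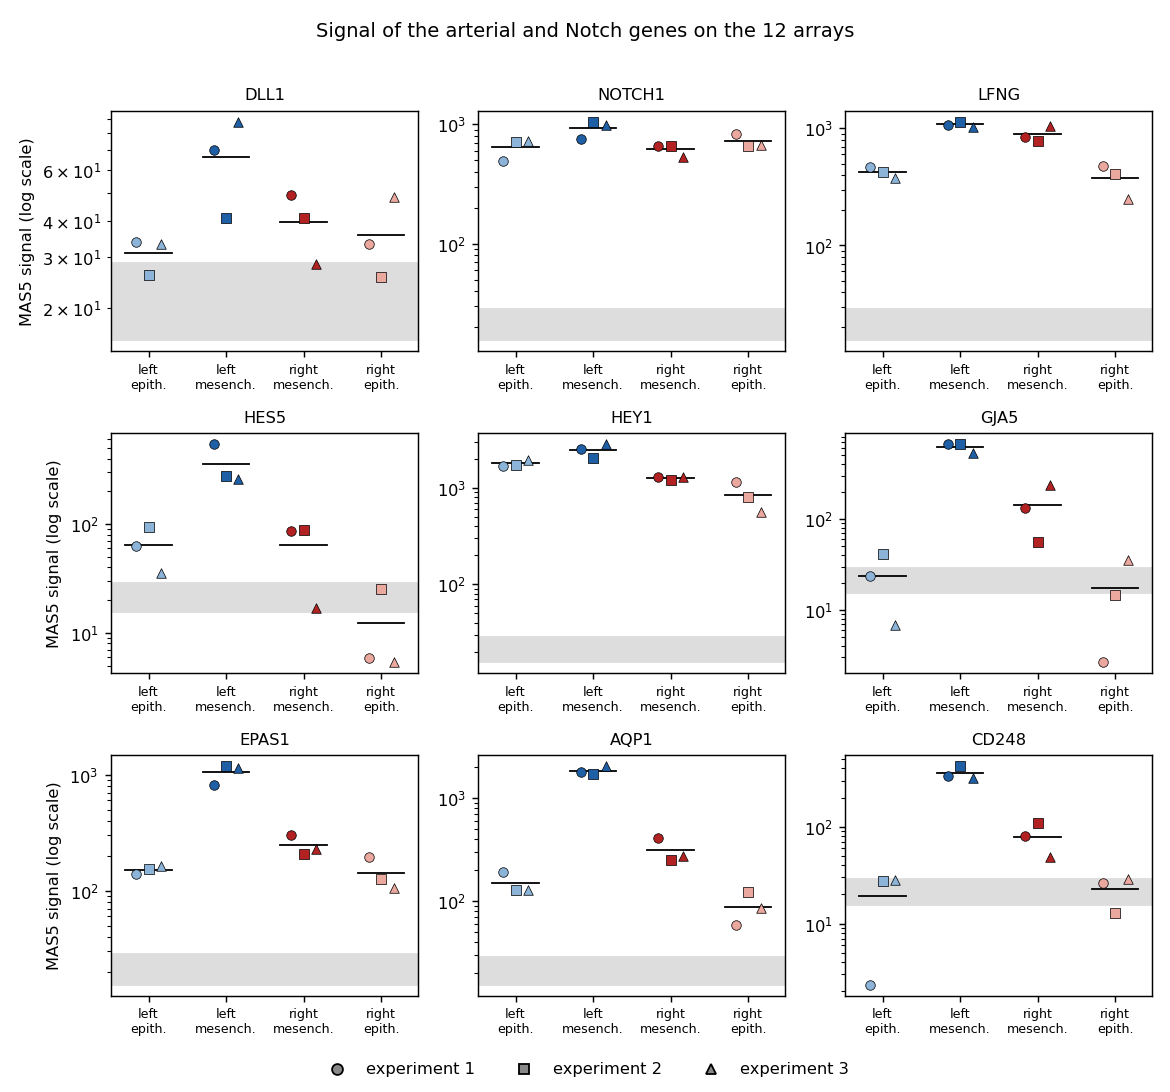
MAS5 signal (log scale) of the brightest probe set of each of the 9 genes in the 4 compartments, with 1 point per array, a shape per experiment, a bar at the mean and a grey band from 15.5 to 28.5 for the range of the floor over the arrays. For HES5, HEY1, GJA5, EPAS1, AQP1 and CD248 the 3 left mesenchymal points lie above the other 9. For DLL1 and NOTCH1 they overlap those of right epithelium, and for DLL1 also those of right mesenchyme, while LFNG separates by layer.

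The epithelial arrays gave a side comparison on other samples than the mesenchymal one. Whether this comparison also helped to choose the genes is not recorded, so their adjusted p in epithelium are read as descriptions. HEY1 was higher on the left, by 1.13 ± 0.20 log2 or 2.18-fold (limma, adjusted p = 0.0036), and in all 3 experiments. By their brightest probe sets AQP1, EPAS1, LFNG and NOTCH1 did not pass. HES5, GJA5 and CD248 passed the signal filter of 47.4 only through left mesenchyme, so their epithelial differences are given without a test. Over all 23063 tested probe sets 1.00% were higher and 1.47% lower in left epithelium. HEY1 lost its call without experiment 2 (1.14 log2, adjusted p = 0.075) and when the variance was moderated without an intensity trend. The difference exceeded the spread of both groups, whose SDs were 129 on the left and 296 on the right.

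HES5 differed by 1.51 ± 0.41 log2, given without a test, with all 3 left epithelial signals above all 3 right ones. On the right only 1 of 3 arrays was above the floor, and the difference ranged from 0.74 to 2.53 log2 over the alternatives. The second HES5 probe set, likewise without a test, gave 0.21 ± 0.40 log2, with the sides overlapping. AQP1 also had its left epithelial arrays above the right ones, at 0.68 ± 0.30 log2 (adjusted p = 0.33). Such a separation was seen for HEY1, HES5 and AQP1, 3 of the 9 brightest probe sets, and for 7.77% of tested probe sets.

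For the brightest probe sets of GJA5, CD248, EPAS1, LFNG and NOTCH1 the epithelia overlapped. Without a test, GJA5 and CD248 differed by 0.28 ± 0.49 and -0.21 ± 0.42 log2. The differences were 0.13 ± 0.29 for EPAS1, 0.19 ± 0.22 for LFNG and -0.17 ± 0.21 log2 for NOTCH1, with adjusted p of 0.81 to 0.91. The second tested NOTCH1 probe set had the other sign, with all 3 left epithelial arrays above the 3 right ones (0.58 ± 0.39, adjusted p = 0.61). Neither a missed threshold nor an overlap shows that the sides were alike, given SEs of 0.21 to 0.49 and epithelial signals of GJA5 and CD248 near the floor. Whether the side difference of a gene differs between the layers was not tested for the 9 genes, because that contrast holds the mesenchymal one.

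**Figure D2:**
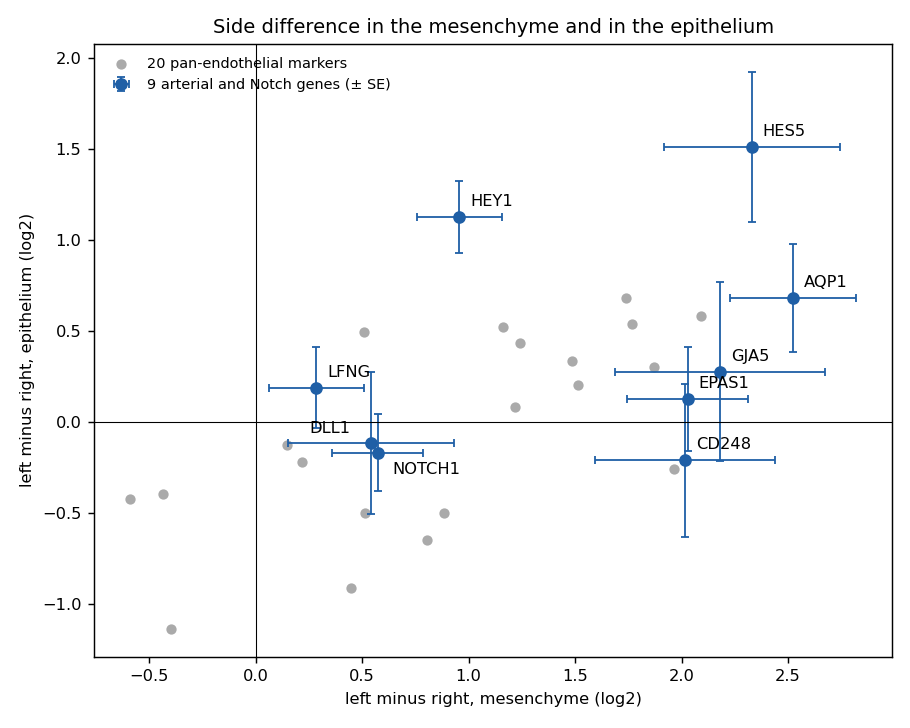
Left minus right difference in mesenchyme (horizontal) and in epithelium (vertical), both in log2, for the brightest probe sets of the 9 genes (blue, bars are ± SE of the fit) and for 20 tested endothelial markers (grey). HEY1 and HES5 lie highest, at 1.13 and 1.51 in epithelium, while GJA5, EPAS1 and CD248 exceed 2.0 in mesenchyme and lie between -0.21 and 0.28 in epithelium.

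The layers were compared over both sides, a contrast that is independent of the left-right one in this balanced fit. It is not independent of a comparison of left mesenchyme with the other compartments. Whether that comparison helped to choose the genes is not recorded, so the adjusted p of the 9 genes are read as descriptions. AQP1 was lower in epithelium, at -2.59 ± 0.21 log2 or 6.03-fold (limma, adjusted p = 9.8e-07), and EPAS1 stood at -1.70 ± 0.20 (adjusted p = 4.7e-05). LFNG was also lower, at -1.29 ± 0.16 (adjusted p = 7.0e-05), while NOTCH1 did not pass (-0.15 ± 0.15, adjusted p = 0.69). GJA5, CD248 and HES5 passed the signal filter of 47.4 only through left mesenchyme, since over the other 9 arrays their mean log2 levels corresponded to signals of 38.2, 32.5 and 36.6. Their layer differences are therefore given without a test, at -3.13 ± 0.35 log2 for GJA5, -2.38 ± 0.30 for CD248 and -1.80 ± 0.29 for HES5. Only 3 of 6 epithelial arrays of GJA5 and 4 of 6 of CD248 and HES5 were above the floor. Over all tested probe sets 2.79% were lower and 2.00% higher in epithelium (4.79% in either direction). The genes were proposed with these arrays in view and it is not recorded which comparison chose each, so nothing is read from how many of them were lower. Over all tested probe sets 461 were higher and 644 lower in epithelium, a split that became 587 and 480 when each array was centred on its median.

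HEY1 passed narrowly, at -0.54 ± 0.14 log2 (adjusted p = 0.033), and did not pass in 16 of 25 alternatives, with adjusted p of up to 0.16. Among those were the fits without left epithelium 1 or 2, left mesenchyme 1 or 3, right epithelium 2 or 3 or any single right mesenchymal array, with differences of -0.57 to -0.39. The second HES5 probe set, which also passed the filter only through left mesenchyme, stood at -1.37 ± 0.28, given without a test. The second EPAS1 probe set gave -1.73 ± 0.30 (adjusted p = 0.0020).

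The layer differences were also taken on each side alone, as a description. On the left, epithelium minus mesenchyme was -4.08 log2 for GJA5, -3.51 for AQP1, -3.49 for CD248, -2.65 for EPAS1 and -2.21 for HES5. On the right the same genes, in that order, gave -2.18, -1.67, -1.27, -0.75 and -1.39. LFNG gave -1.33 on the left and -1.24 on the right, and HEY1 -0.46 and -0.63. The gap between these sizes is the same quantity as the gap between the side differences above and was not tested.

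Several genes had probe sets that disagreed, which bears on how firmly each pattern can be stated. HES5 and EPAS1 had 2 tested probe sets each, and in both pairs left mesenchyme was above the other 9 arrays. The second probe set gave the smaller mesenchymal difference each time, 1.53 against 2.33 log2 for HES5 and 1.40 against 2.03 for EPAS1. For LFNG and NOTCH1 the probe sets correlated at r of -0.14 to 0.15, and all but 1 of the dimmer ones were untested. HEY1, GJA5, AQP1 and CD248 rest on 1 probe set each.

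**Figure D3:**
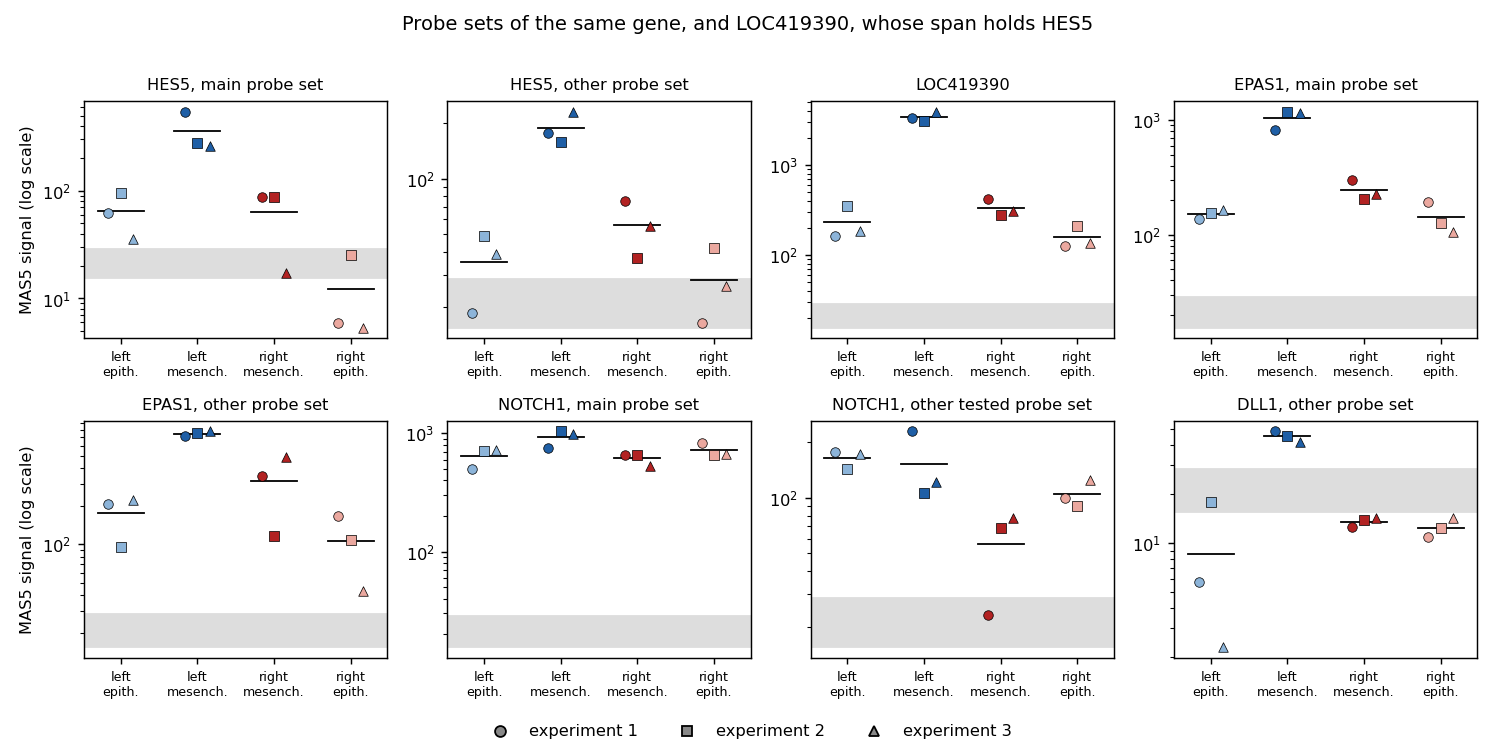
MAS5 signal (log scale) of pairs of probe sets of HES5, EPAS1 and NOTCH1, of the dimmer DLL1 probe set and of LOC419390, drawn by compartment with 1 point per array, a bar at the mean and the floor range in grey. Both HES5 panels, both EPAS1 panels and LOC419390 are highest in left mesenchyme, while the second NOTCH1 probe set has left epithelium as high as left mesenchyme.

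The rest of the Notch pathway was taken from 5 lists. They held ligands, receptors, modifying and processing enzymes, nuclear factors with inhibitors, and other HES and HEY family or related genes. Of 36 tested genes on these lists none passed in either side comparison in the fit of all 12 arrays, by limma at an adjusted p under 0.05, where 460 of 23063 probe sets (1.99%, with 0.932% higher and 1.06% lower) passed in mesenchyme and 569 (2.47%) in epithelium. At an unadjusted p under 0.05 the 5 lists held 1, 0, 1, 3 and 1 genes in mesenchyme and 0, 0, 1, 1 and 1 in epithelium. Of all 23063 tested probe sets 2836 and 2947 had such a p, so nothing is read from these counts. Their median mesenchymal differences lay between -0.32 and 0.14 log2, against 0.002 over all tested probe sets.

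Among the ligands DLL4, the endothelial Delta gene, read 208, 196 and 107 in left mesenchyme, 26.2, 46.3 and 97.6 in right mesenchyme, 14.5, 31.5 and 8.9 in left epithelium and 25.1, 40.5 and 21.5 in right epithelium. Its left mesenchymal arrays were above all others, but the difference between the mesenchymes, 1.43 log2, did not pass (adjusted p = 0.13). DLL4 did pass without right mesenchyme 3 (2.01, adjusted p = 0.036), also with right epithelium 3 left out (2.05, adjusted p = 0.033), and with array weights (1.69, adjusted p = 0.024). It did not pass in the other alternatives in which it was tested. The difference fell to 0.94 without experiment 1 (adjusted p = 0.62), 1.08 without right mesenchyme 1 and 1.13 without left mesenchyme 1 (adjusted p = 0.43 for both). DLL4 was the only Notch list gene to pass between the layers in that fit, at -1.52 ± 0.31 log2 (adjusted p = 0.0074, up to 0.073 without experiment 1 or 2), but it too was above the filter only through left mesenchyme, with a signal of 30.1 at the mean log2 of the other 9 arrays. JAG1, which encodes a Jagged ligand, differed by 0.02 log2 between the mesenchymes, and JAG2 and the non-canonical ligand genes DLK1 and DLK2 were too dim to test.

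NOTCH2, the only other receptor gene matched, gave -0.32 log2 in mesenchyme and -0.37 in epithelium (adjusted p of 0.65 and 0.55). RBPJ, the DNA-binding partner of cleaved Notch, gave -0.14 and 0.26. MFNG, a Fringe gene like LFNG, was too dim to test, and RFNG gave -0.11 in mesenchyme. On the list of HES and HEY family or related genes the mesenchymal values ran from -1.60 ± 0.50 log2 for ID3 to 0.25 for HES4. ID3, one of the related genes, encodes an inhibitor of basic helix-loop-helix factors. ID3 did not pass (adjusted p = 0.14) and read 48.7, 5.4 and 14.9 in left and 70.6, 48.2 and 198 in right mesenchyme, with 1 of 3 left arrays above the floor. HEY2, which is known for arterial identity in fish and mouse, differed by -0.48 (adjusted p = 0.73), with signals of 12.2 to 69.7 over the 12 arrays. HES6 was not tested, and NRARP, an ankyrin repeat gene that Notch induces, was not above the floor on any array. HES1, HEYL, NOTCH3 and NOTCH4 had no named probe set here.

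**Figure D4:**
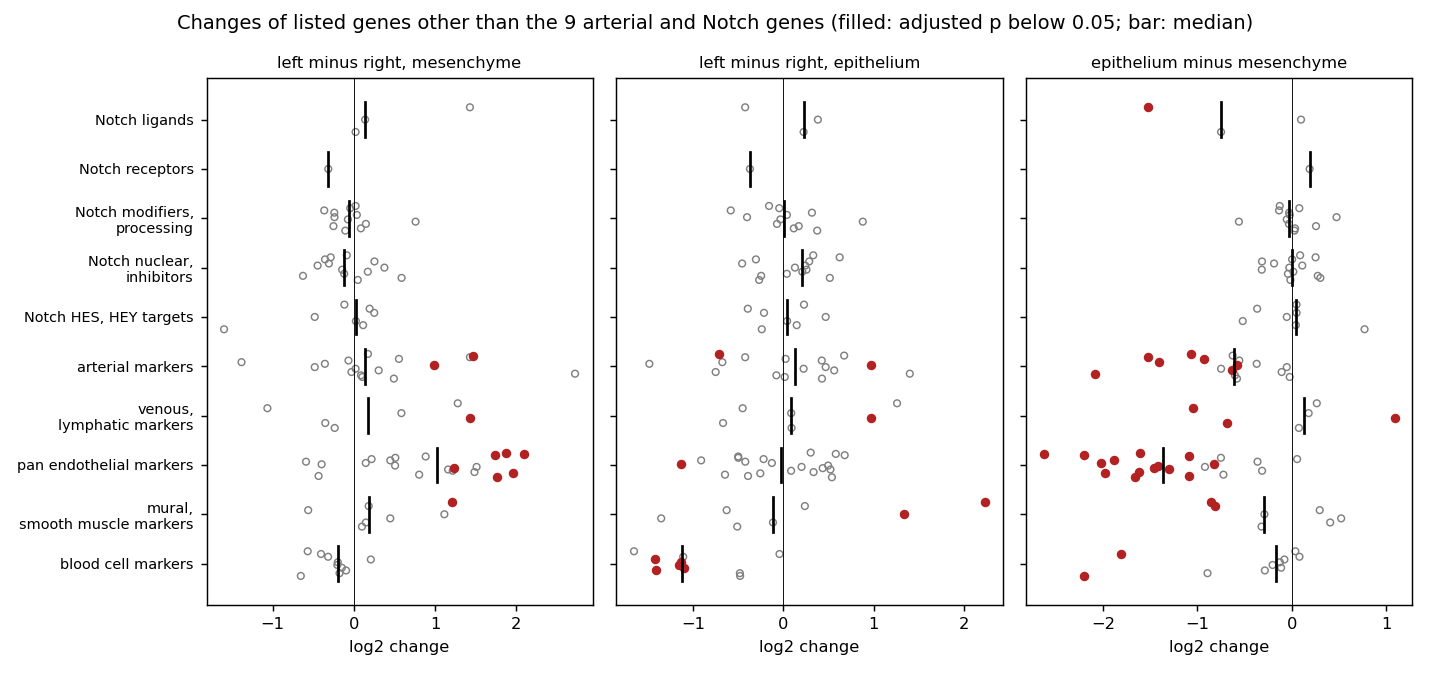
Log2 differences of listed genes other than the 9, by list, for left minus right mesenchyme, left minus right epithelium and epithelium minus mesenchyme, with 1 point per tested gene, filled where the adjusted p was under 0.05, and a bar at the median of the list. In mesenchyme the endothelial list is shifted to the left side, with a median of 1.02, while the medians of the 5 Notch lists lie between -0.32 and 0.14.

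Arterial markers beyond the 9 genes were mixed. Of 16 tested, 2 were higher in left mesenchyme and none lower, with a median of 0.14 log2. CXCR4, a chemokine receptor gene of arterial endothelium and many other cells, was higher by 1.47 ± 0.27 (adjusted p = 0.0054), with 587, 504 and 646 against 257, 195 and 155. It lost its call without left mesenchyme 3 (1.22 log2, adjusted p = 0.072). FOXC2, a forkhead gene of vessels and mesenchyme, was higher by 0.98 ± 0.18 on the left in mesenchyme and again in epithelium (adjusted p of 0.0049 and 0.0044). Its epithelial call was lost without experiment 1 or 2 and from only the 6 arrays of the comparison (limma, adjusted p of up to 0.12). Leaving out any 1 experiment left no arterial marker above the threshold in mesenchyme.

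SOX17, an arterial transcription factor gene that is also expressed in endoderm, had the largest mesenchymal value, 2.72 log2, without passing (adjusted p = 0.12). Its signals were 1255, 713 and 1627 on the left and 450, 35.8 and 202 on the right. EFNB2, the ephrin B2 gene of arteries, read 521 against 327 on average (0.56 log2, adjusted p = 0.54). GJA4 and BMX were too dim to test. In epithelium ALDH1A3, a retinoic acid synthesis gene, was lower on the left (-0.72 ± 0.18, adjusted p = 0.043), a call lost in 19 of 26 alternatives, among them those without left epithelium 1 (-0.45) or 2, right epithelium 1 or 3, any left mesenchymal array, or right mesenchyme 1 or 2.

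Between the layers 7 of the 16 arterial markers were lower in epithelium and none higher, with a median of -0.61 log2 against -0.01 over all tested probe sets. SOX17 stood at -2.08 ± 0.58 (adjusted p = 0.048) and DLL4 at the value above. FBLN5, an elastic fibre gene, stood at -1.41 ± 0.33 (adjusted p = 0.017) and ALDH1A3 at -1.07 ± 0.13 (adjusted p = 4.6e-05). SOX17 lost its call without any of 9 single arrays and FBLN5 without any of 6, with adjusted p of up to 0.15 and 0.068, and 4 markers passed without left epithelium 1, left mesenchyme 2 or right epithelium 2.

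General endothelial markers were read beside the 9 genes. Of 20 tested, 6 were higher in left than in right mesenchyme and none lower, with a median of 1.02 log2. CDH5, the VE-cadherin gene, was higher by 2.09 ± 0.25 (adjusted p = 1.1e-04), with 3386, 3310 and 3777 against 786, 839 and 790. SOX7 was higher by 1.96 ± 0.28 (adjusted p = 6.0e-04), CD34 by 1.87 ± 0.41 (adjusted p = 0.023) and VWF, the von Willebrand factor gene, by 1.77 ± 0.34 (adjusted p = 0.0084). The range ran from -0.59 for ESAM, a junction protein gene, to the value of CDH5, so the markers did not shift by one amount.

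Without right mesenchyme 3 and right epithelium 3 the count was 5, with a median of 0.94. It was 3 without left mesenchyme 1 or 3, and 2 to 3 without an experiment. CD34 lost its call without any 1 of the 6 mesenchymal arrays (1.69 to 1.97 log2), and VWF without left mesenchyme 1 or 3 or right mesenchyme 2 (1.61 to 1.74).

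The summed signal of the 24 measured endothelial markers was 14859 to 15326 in left mesenchyme, 6772 to 8572 in right mesenchyme, 2944 to 4235 in left and 3041 to 3987 in right epithelium. In epithelium 1 of 20 was lower on the left, FLT1, a VEGF receptor gene (-1.14 ± 0.23, adjusted p = 0.012), and none higher, with a median of -0.02. FLT1 lost its call without left or right epithelium 2 (-1.03 and -0.94). Between the layers 14 of 20 were lower in epithelium and none higher, with a median of -1.36. The interaction, the side difference in epithelium minus that in mesenchyme, passed for 0 of the 20 by limma, with 9 at an unadjusted p under 0.05. It passed for 6 of all 23063 tested probe sets, which is 0.0260%, and 1346 of them had an unadjusted p under 0.05.

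Set beside these markers by the brightest probe sets, the mesenchymal differences of AQP1, HES5 and GJA5 exceeded those of all 20, and those of EPAS1 and CD248 exceeded all but that of CDH5. HEY1 was exceeded by 10, NOTCH1 and DLL1 by 12 and LFNG by 15 of the 20. By the second probe sets, HES5 was exceeded by 5 and EPAS1 by 7. The genes were chosen with this difference known, so this order is a description. Over the 12 arrays the mean log2 signal of the 20 markers correlated with AQP1 at r = 0.95, CD248 at 0.95, EPAS1 at 0.94, GJA5 at 0.93, LFNG at 0.90, HES5 at 0.83, DLL1 at 0.70, HEY1 at 0.60 and NOTCH1 at 0.54. These correlations span 4 compartments that differ in both measures and share their arrays. The part that the amount of endothelium has in the differences of the 9 genes was not tested.

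HEY1 did not have the epithelial pattern of the endothelial list. It was higher in left epithelium, where the endothelial median was -0.02 and the summed marker signal of the sides overlapped. Globin genes differed there in the other direction: 5 of 10 tested blood cell markers were lower in left epithelium, among them the alpha globin gene HBA1 (-1.43 ± 0.26 log2, adjusted p = 0.0040), and none passed in mesenchyme (0 at an unadjusted p under 0.05). The epithelial count was 3 without left or right epithelium 2 or 3, where HBAD and HBBR lost their calls, 2 without right mesenchyme 3 and right epithelium 3, and 0 without experiment 2 or without an intensity trend. Without experiment 3 it was 1. The summed blood marker signal was 19702 to 63939 in left epithelium and 68691 to 72686 in right epithelium. Its part in the HEY1 difference was not tested.

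Among venous and lymphatic markers NRP2, a semaphorin and VEGF-C co-receptor gene, was higher on the left in mesenchyme (1.43 ± 0.22, adjusted p = 0.0016) and in epithelium (0.97 ± 0.22, adjusted p = 0.027), 1 of 6 in each case. The mesenchymal call was lost without experiment 1 or 2 (adjusted p of up to 0.095), and the epithelial call was lost without any of the 6 epithelial arrays (0.80 to 1.08). FLT4, the VEGF receptor 3 gene, was at 1.28 and 1.26 log2 (adjusted p of 0.056 and 0.053), and NR2F2, a venous transcription factor gene, at 0.59 and 0.09. Only 3 of the 6 had a positive difference in mesenchyme and 4 in epithelium, with medians of 0.17 and 0.09 log2. The lowest were LYVE1 at -1.07 in mesenchyme and PROX1 at -0.67 in epithelium. Between the layers NRP2 was higher in epithelium, by 1.09 ± 0.16 log2 (limma, adjusted p = 3.7e-04), where no general endothelial marker was called higher. LYVE1 and PROX1 were lower in epithelium, at -1.04 ± 0.24 and -0.68 ± 0.19 (adjusted p of 0.014 and 0.048). Those 2 calls were lost in 5 of 24 and 16 of 25 alternatives. Of 7 tested mural cell markers 1 was higher in left mesenchyme, ABCC9, a potassium channel subunit gene of pericytes (1.21 ± 0.26, adjusted p = 0.018), lost without left mesenchyme 1 or 3 or right mesenchyme 1 or 3 (1.07 to 1.21). ABCC9 and KCNJ8, the gene of its channel partner, were higher in left epithelium, by 2.24 ± 0.26 and 1.34 ± 0.29 (adjusted p = 5.6e-05 and 0.019). KCNJ8 lost this call without left or right epithelium 3 (1.09 and 0.94). In that comparison only 3 of the 7 mural markers had a positive difference, with a median of -0.12 log2, and MCAM stood at -1.36.

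HES5 is also a neural progenitor gene, so neural markers were read beside it. SOX2, NEUROD1 and NEUROD4 were not above the floor on any array, and of 6 tested neural markers 2 were higher in left mesenchyme. These were NKX6-1, a homeobox gene (1.74 ± 0.41, adjusted p = 0.036), and NEFM, a neurofilament gene (0.70 ± 0.15, adjusted p = 0.018). NKX6-1 lost its call without 5 of the 6 mesenchymal arrays and NEFM without any of them. The summed neural signal was 9475 to 10486 in left and 8681 to 9867 in right mesenchyme, and its part was not tested. None of 6 tested endoderm markers passed in either side comparison.

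EPAS1 was read beside genes of the hypoxia response. Of 13 tested none passed in mesenchyme, with 5 at an unadjusted p under 0.05 and a median of -0.07 log2. In epithelium CA9, a carbonic anhydrase gene that is a classical hypoxia target, was higher on the left (1.14 ± 0.20, adjusted p = 0.0027, 0.12 without experiment 2). Among connexins and aquaporins other than GJA5 and AQP1, 3 of 14 measured were bright enough to test. GJA1, the connexin 43 gene, had the opposite layer pattern to GJA5, higher in epithelium by 1.32 ± 0.14 log2 (adjusted p = 1.2e-05).

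RNA integrity was gauged by the 3 prime minus 5 prime log2 signal of GAPDH control probe sets. It was 1.24 to 1.58 in left mesenchyme, 1.11 to 1.28 in right mesenchyme, 1.23 to 1.35 in left epithelium and 0.947 to 1.30 in right epithelium, so it was somewhat higher on the left with overlap between the sides. The same measure for actin was 1.54 to 1.88 in left and 1.47 to 1.62 in right mesenchyme. It was 1.27 to 1.67 in left and 1.05 to 1.74 in right epithelium, so the ranges overlapped. The part of RNA integrity in the side and layer differences was not tested.

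The 9 genes fell into like and unlike patterns over the 12 arrays. AQP1, EPAS1, GJA5 and CD248 correlated with each other at r of 0.88 to 0.95. HES5 correlated with AQP1 at 0.89 and with HEY1 at 0.80, while HEY1 correlated with GJA5 at 0.57 and with CD248 at 0.58. The probe sets share arrays and span compartments that differ, so these are descriptions.

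Among 9727 other named genes with a tested brightest probe set, those most like each gene by Pearson r over the 12 arrays were as follows. AQP1 was closest to VWF (0.97), LOC419390 (0.97) and CDH5 (0.96), GJA5 to MYCT1 (0.95), SOX7 and CDH5, and EPAS1 to LOC769729 (0.97), SOX7 and MMRN1. CD248 was closest to MMRN1 (0.96), PLXND1 and SOX7, so that endothelial list genes stood in each of these trios. HES5 was closest to CXCR4 (0.92), TBC1D4 and WFDC1. HEY1 was closest to CXCL12 (0.96), SERTAD4 and OSTN. None of the neighbours of HES5, HEY1, LFNG or NOTCH1 was on the endothelial list. CXCL12, a chemokine gene, averaged 9028 ± 441 (SD, n = 3) in left mesenchyme and 6566 ± 344 in left epithelium, and its right-sided means were lower, in the same order as HEY1. LFNG was closest to LECT2 (0.95), EPB41L2 and ANXA11, whose mean signals were higher in both mesenchymes than in both epithelia, and NOTCH1 to MAN1A1 (0.93), ZNF503 and TMEM135.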

How the data were processed

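Gene expression was measured in 12 samples of chicken dorsal mesentery, 3 in each of 4 compartments. The authors deposited linear intensity values, made with GCOS and MAS5 per the submitters' processing notes; versions and genome build are not given in the sources. The values show that the authors scaled each array to a mean of 500.1 after trimming 2% at each end. Names came from the platform annotation of 2016, in which 27166 of 37693 chicken probe sets had 1 symbol, 177 had several and 10350 had none. RefSeq (GRCg7b) served only for names and overlaps. No coordinates or sequences are printed, since no build is named and the sequences were not analysed here.

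Here 16 was added, log2 taken, and the 23063 of 38439 non-control probe sets with a mean above the 40th percentile (signal 47.4) were tested. A linear model (limma 3.58.1, R 4.3.3) over all 12 arrays had terms for compartment and experiment. Experiment was a fixed block, since the design text gives each of the 3 experiments 4 compartments. Variances were moderated with an intensity trend. Two-sided p-values were adjusted over the 23063 probe sets (Benjamini-Hochberg) and called under 0.05; an exact test of 3 against 3 arrays could not go below 0.1. They rest on the spread between experiments that is left after the shift common to each experiment is removed. The fit was tested on simulated data. As a pairing check, deviations from compartment means correlated at -0.063 to 0.105 in the 18 same-numbered pairs. Their mean was 0.021, against -0.010 for pairs with different numbers. This does not settle whether equal numbers mark the same experiment.

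The 9 genes, and the 16 lists of other genes (188 of 237 genes matched), were chosen with earlier results of these data known, and the list members were written from general knowledge. The brightest probe set stood for a gene, and all 17 are given. Of listed genes that passed, at most 4 per list and comparison were named, by size of change. For some lists and comparisons fewer of these or none were named, so a gene not named may have passed. Others named without passing serve to describe the pathway. Alternatives were other added constants, filters, scalings and variance settings, no block, and leaving out arrays or experiments.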

Additional observations from a re-analysis of the deposited data

How the results depend on the processing

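By the brightest probe sets, the mesenchymal differences of 8 of the 9 genes kept their sign in all alternatives run. DLL1 was not run. The ranges were 2.36 to 2.76 log2 for AQP1, 1.72 to 2.76 for HES5, 1.58 to 2.84 for GJA5 and 1.83 to 2.35 for EPAS1. They were 1.57 to 2.23 for CD248, 0.80 to 1.06 for HEY1, 0.39 to 0.76 for NOTCH1 and 0.16 to 0.52 for LFNG. Counts of probe sets passing depended more on the processing, and the cause was not tested. In mesenchyme 460 passed, but 763 with array weights, 205 without an intensity trend, 288 without right mesenchyme 3 and right epithelium 3 (chosen after seeing the data) and 149 to 541 when 1 array or experiment was left out. In epithelium 569 passed, but 268 without a trend, 272 from only the 6 arrays of the comparison and 200 to 562 with an array or experiment left out. Between the layers 1105 passed, but 672 without a trend and 419 to 1151 in the latter fits. The interaction passed for 6, but for 14 with array weights, 10 with a filter at the 60th percentile, with 64 added to the signal, or with quantile normalization, 3 with median centring or no filter, 0 without a trend (1385 at an unadjusted p under 0.05) and 0 to 15 with an array or experiment left out. Without the experiment as a block 447, 529 and 1073 passed, and 10 for the interaction; no call of the 9 genes was lost by leaving out the block. Signals near the floor limit GJA5, CD248, HES5 and DLL1.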
